A study of Mus musculus with 37 samples.

Results

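Oogenesins and their relatives of the Prame family are leucine-rich repeat proteins of the germline and the early embryo, and 8 of their genes are described here: Oog1, Oog2, Oog3, Oog4, Pramef12, Pramef25, Pramel6 and Pramel7. They were taken by gene symbol from the 29296 genes listed in at least 1 of the 4 RNA-seq tables of the series. No cut-off on a measured value was used, but earlier results of these data were known when they were chosen. Of the 8, 6 were listed in both tables of oocytes and all 8 in both tables of 2-cell embryos. Pramel6 and Pramel7 were not listed in the oocyte tables.

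The samples were mouse oocytes and embryos on a C57BL/6 background. Fully grown germinal vesicle (GV) oocytes came from 2 floxed lines crossed with Zp3-Cre, a recombinase expressed in the growing oocyte: ZH carries a floxed Hira allele and CabZ a floxed Cabin1 allele. Hira and Cabin1 are subunits of the complex that deposits the histone variant H3.3. The controls were heterozygous (Het) littermates and not wild type, and the study describes CabZ heterozygous females, in its account of fertility, as carrying Zp3-Cre and a single floxed allele. Each genotype (Het or homozygous KO) of each line had 4 libraries of oocytes, and 2-cell embryos from Het and from KO females of the CabZ line had 4 libraries each. The paper made CabZ embryos both by fertilisation and by activation without sperm, and does not say which kind was sequenced. In the last experiment, wild-type GV oocytes were injected with RNA for Zscan4d (labelled Zscan4 OE, 3 libraries) or for GFP (4 libraries), matured and activated without sperm, and collected as 2-cell embryos. ATAC-seq peak lists of GV oocytes were also used, 3 from CabZ Het and 3 from CabZ KO. The methods describe 10 pooled oocytes per RNA-seq library, whereas the sample records name individual cells, and nothing says that replicate libraries came from separate animals, so that p-values measure the spread between these libraries, which may be technical.

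PRAME family proteins are horseshoe-shaped repeat proteins, and several of them serve as the part of a cullin 2 ubiquitin ligase that binds the protein to be degraded. The mouse family expanded into clusters of related genes, many of which are transcribed mainly in germ cells or in the first embryonic divisions. Oogenesins are abundant in growing oocytes, where their messages are stored for the embryo. Oog1 was described as a partner of the Ral exchange factor RalGDS. Pramef12 is needed for the maintenance of spermatogonial stem cells. Pramel6 and Pramel7 are expressed in pluripotent cells of the embryo, and Pramel7 directs the methylation cofactor UHRF1 to degradation.

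The members sit at 3 places in the genome (GRCm38; GENCODE M21 coordinates, which the tables share). Oog1 lies on the plus strand at chr12:87602688-87608850. On chromosome 4, 5 members span 971 kb: Oog4 at chr4:143437164-143450324 (minus strand), Pramef25 at chr4:143948580-143951016 (minus), Oog3 at chr4:144157557-144162663 (minus), Oog2 at chr4:144190719-144196934 (plus) and Pramef12 at chr4:144391674-144408464 (minus). Pramel7 (minus) at chr2:87489087-87497093 and Pramel6 (plus) at chr2:87506565-87510872 point away from each other, with 9.5 kb between their starts. All 8 are annotated as protein-coding, and Pramef12 alone overlaps another gene, the antisense RNA Pramef12os. Whether the counting used strand is not given in the sources used here, so that reads of Pramef12 and Pramef12os cannot be told apart.

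The members differ in how far their reads can be assigned. The coding sequence of Oog1 is 99.9% identical to that of Gm2042, a gene on the same chromosome annotated as oogenesin-1-like, and 76.7% of the windows of 100 bases in the longest Oog1 transcript recur in transcripts of other genes, mainly Gm2042. The share was 26.5% for Pramef25, 22.4% for Oog2 (with Gm13084) and 10.8% for Oog3 (with Gm4350). It was 0 for Pramef12, which overlaps Pramef12os, and for Oog4, Pramel6 and Pramel7, whose reads are thus the least ambiguous. Values of Oog1 are uncertain for this reason, since how the authors' software divided reads between copies is not given in the sources used here. Among the 4 oogenesins, coding identity ran from 74.1% (Oog2 with Oog4) to 81.4% (Oog1 with Oog3), and between an oogenesin and Pramel7 it was 57.3 to 60.7%.

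The 250 bases before the RefSeq start of each gene (GRCm38.p6; all 8 members matched) are printed for the 4 oogenesins and for Pramel6, because these windows resemble each other while the values of the genes moved in opposite directions in CabZ 2-cell embryos. Each runs 5′ to 3′ on the strand of its gene and ends at the base before the start. Capitals mark the longest word that all 4 oogenesins hold, TTCAGCTGAAA, together with matches to a TATA box (TATAAA) or a NOBOX element (TAATTG or TAATTA) on either strand.
Oog1, chr12:87602415-87602664 (+): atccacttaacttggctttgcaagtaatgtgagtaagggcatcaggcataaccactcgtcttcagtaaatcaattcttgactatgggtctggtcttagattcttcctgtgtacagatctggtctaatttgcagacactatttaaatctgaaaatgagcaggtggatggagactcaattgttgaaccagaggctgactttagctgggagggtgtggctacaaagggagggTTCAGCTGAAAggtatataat
Oog2, chr4:144190467-144190716 (+): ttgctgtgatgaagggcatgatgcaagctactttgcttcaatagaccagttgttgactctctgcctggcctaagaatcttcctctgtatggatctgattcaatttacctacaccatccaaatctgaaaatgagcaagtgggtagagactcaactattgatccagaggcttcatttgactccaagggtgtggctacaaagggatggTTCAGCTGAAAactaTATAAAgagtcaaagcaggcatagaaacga
Oog3, chr4:144162652-144162901 (-): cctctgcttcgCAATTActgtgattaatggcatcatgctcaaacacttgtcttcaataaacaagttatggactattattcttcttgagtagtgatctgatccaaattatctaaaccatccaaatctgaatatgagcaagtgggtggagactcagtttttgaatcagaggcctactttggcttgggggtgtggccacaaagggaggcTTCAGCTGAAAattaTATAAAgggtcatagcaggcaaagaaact
Oog4, chr4:143450325-143450574 (-): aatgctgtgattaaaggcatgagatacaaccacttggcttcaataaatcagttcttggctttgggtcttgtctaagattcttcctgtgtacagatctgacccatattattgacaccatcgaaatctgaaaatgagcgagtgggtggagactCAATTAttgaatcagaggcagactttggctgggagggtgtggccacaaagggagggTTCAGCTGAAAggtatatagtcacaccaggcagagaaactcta
Pramel6, chr2:87506315-87506564 (+): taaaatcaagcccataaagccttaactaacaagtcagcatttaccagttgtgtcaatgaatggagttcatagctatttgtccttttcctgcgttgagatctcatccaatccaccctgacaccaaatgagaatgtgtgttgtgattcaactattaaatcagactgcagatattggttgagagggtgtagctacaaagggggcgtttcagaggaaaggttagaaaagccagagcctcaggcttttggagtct

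The oogenesin windows aligned with each other over 221 to 242 bases at 77.4 to 85.1% identity, and with Pramel6 over 142 to 179 bases at 72.1 to 77.3%. The word of 11 bases, which holds the E-box CAGCTG, ended 10 bases before the start of Oog1 and 32 to 34 bases before those of Oog2, Oog3 and Oog4. It occurred in 14 of all 32851 promoter windows of that length (0.0426%), on either strand, and those 14 also included Gm2042 and 3 other genes named Pramel in RefSeq. TATAAA, the only letters searched for as a TATA box, were found in Oog2 and Oog3 among the members and in 12.4% of all windows. The windows of Oog1 and Oog4 hold TATATA shortly after the common word, letters that were not searched for. A NOBOX element was found in Oog3, Oog4 and Pramef12 and in 11.3% of all windows. E-boxes of any kind (CANNTG) were found in all 8 and in 66.2% of all windows. TGCACAC, the letters bound by ZSCAN4, were in none of the 8 windows and in 3.67% of all. RefSeq and GENCODE starts differ for some members, so that these distances depend on the annotation. The window of Oog1 ends at 87602664, short of its GENCODE start at 87602688, and the window of Oog3 reaches into its GENCODE span. That of Pramel7 (chr2:87492419-87492668) lies inside its GENCODE span. The gap between Pramel6 and Pramel7 and the ATAC-seq start windows used GENCODE starts. A match is a description of these letters only.

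Values are FPKM over the whole gene span, so that they can be compared between libraries of a table but not between genes. Between 5819435 and 21822208 reads per library lay on genes of the tables, with fewer in CabZ KO 2-cell embryos (5819435 to 6325536) than in CabZ Het (7945434 to 8235769). Only an exon of Cabin1 is floxed, while its value covers the whole gene. Cabin1 was at 0.0125 to 0.0482 FPKM in CabZ KO and 0.0891 to 0.159 in CabZ Het oocytes, and at 0.064 to 0.181 against 0.229 to 0.455 in 2-cell embryos. A lower Cabin1 value was not limited to the line in which Cabin1 is floxed. ZH Het oocytes held 0.259 to 0.346 FPKM of this gene, whereas ZH KO oocytes held only 0.064 to 0.102. Hira, not floxed in CabZ, dropped from 0.193 to 0.268 FPKM in Het 2-cell embryos down to 0.0147 to 0.0569 after Cabin1 loss. The Cabin1 values therefore do not by themselves check the CabZ labels. Hira was at no more than 14 reads in any ZH library, Het or KO, and does not check the ZH labels. Zscan4d was at 70.3 to 84.3 FPKM in the libraries labelled Zscan4 OE and at 69.4 to 149 in GFP libraries, so that an excess of the message was not seen at the 2-cell stage. The paper reports raised Zscan4 after injection relative to uninjected oocytes, by qRT-PCR, immunofluorescence and western blot. The 2-cell values therefore do not check the level in the oocyte. Levels between tables are given in CPM, which scales the reads of a gene to the same total for every library. Of 12 oocyte markers, all were listed in every table and their summed level in GV oocytes was between 11600 and 26200 CPM, whereas granulosa and cumulus cell markers summed to between 49.1 and 137.

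To compare the members with each other, CPM were divided by the exon length of each gene in kb (CPM per exon kb). On this scale Oog3 had the highest mean in all 8 groups, although its range overlapped that of Oog4 in ZH KO and CabZ KO oocytes. It was at 2650 ± 174 (SD, n = 4) in ZH Het and 2300 ± 281 in CabZ Het oocytes. Oog4 came next in GV oocytes with 1390 ± 92.9 in CabZ Het, followed by Oog1 at 492 ± 58.6 and Oog2 at 340 ± 31.5. Pramef12 was far lower at 19.6 ± 2.68, and Pramef25 was at 0.169 ± 0.2. Thus the oocyte pool of this group of genes was made up of the oogenesins, and the members together held 0.848 to 1.01% of the reads in CabZ Het oocytes.

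The order was different in CabZ Het 2-cell embryos. Oog3 was at 3320 ± 341 CPM per exon kb and Oog1 at 314 ± 66.0, and then came Pramel6 at 87.6 ± 20.2, Pramel7 at 66.3 ± 19.7, Oog4 at 61.5 ± 18.2, Oog2 at 48.5 ± 14.6, Pramef25 at 30.3 ± 5.69 and Pramef12 at 4.93 ± 1.56. The levels of Oog4 and Oog2, among the high genes of the oocyte, had come down among those of the Prame genes of the embryo. Oog3 took 83.3 to 89.0% of the oogenesin reads in CabZ Het embryos, against 45.4 to 49.3% in CabZ Het oocytes. The 4 tables were normalised separately and list different genes, and how the CabZ embryos were made is not stated. Levels set across the tables are therefore given without a test.

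In CPM, the groups took the following order for each member. Oog1 was highest in GFP (2320) and Zscan4 OE (2290) embryos, whose ranges overlapped, and lowest in ZH KO oocytes (537), whose range overlapped that of CabZ Het embryos (771). Oog2 was highest in CabZ Het (843) and CabZ KO (838) oocytes and lowest in CabZ Het embryos (120), which stood apart from the next group, CabZ KO embryos (381). Oog3 was highest in CabZ KO embryos (15700), above GFP (9390) and Zscan4 OE embryos (9070) with no overlap, and the 4 oocyte groups (3510 to 4940) overlapped with their neighbours. Oog4 was highest in CabZ KO oocytes (4150), which did not overlap with ZH KO (3020), and the 4 oocyte groups all lay above the 4 embryo groups (122 to 812). The means of Pramef12 had the same split between stages, from 61.3 in CabZ KO oocytes to 12.7 in CabZ Het embryos, with overlap between all neighbours but the last pair. Pramef25 had the opposite split, with 41.3 to 57.0 in the embryo groups and 0.284 to 6.36 in the oocyte groups. Pramel6 and Pramel7 were highest in CabZ Het embryos (182 and 141), then in CabZ KO (74.8 and 34.2), GFP (41.7 and 12.9) and Zscan4 OE embryos (11.9 and 2.95), and for both genes CabZ KO and GFP were the neighbours that overlapped.

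**Figure D1:**
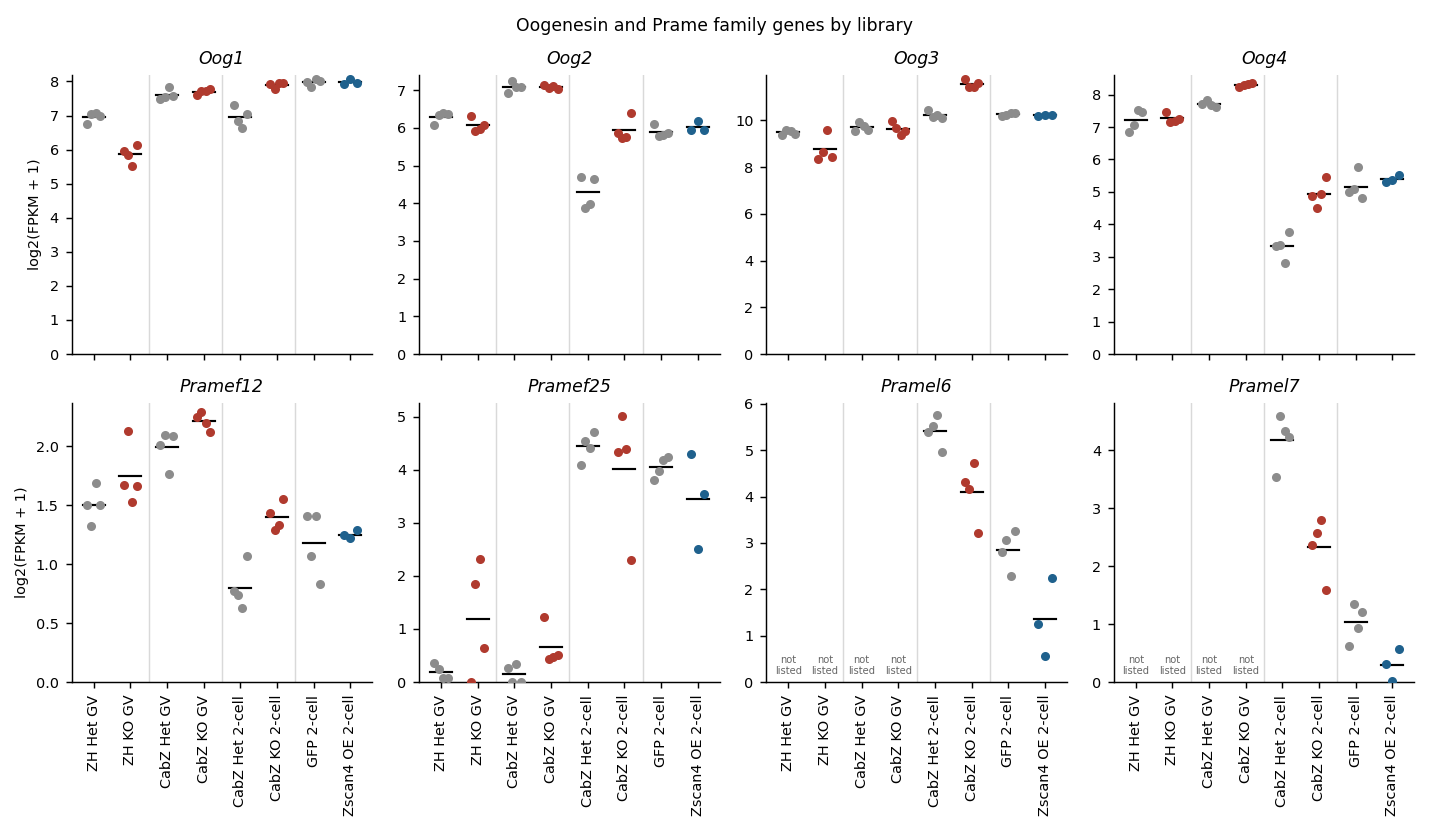
Each panel shows one gene, with a point per library at its log2(FPKM + 1) and a bar at the group mean (grey, controls; red, KO; blue, Zscan4 OE; vertical lines separate the 4 tables, which were normalised separately). Oog2, Oog3 and Oog4 lie higher, and Pramel6 and Pramel7 lower, in all 4 CabZ KO 2-cell libraries than in all 4 CabZ Het libraries.

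To ask how the members respond to loss of Hira in the oocyte, ZH KO were compared with ZH Het oocytes by limma on log2(FPKM + 1). A gene was called when its adjusted p was under 0.05 and its change above 2-fold, that is above 1 on the log2 scale. Over all 5792 genes tested in the ZH table, 10.5% were called higher and 7.2% lower. Of the 5 members tested, 1 was called lower and 0 higher.

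Oog1 fell. It was at 107, 132, 133 and 125 FPKM in the 4 ZH Het libraries and at 61.8, 56.3, 45 and 70 in the 4 ZH KO libraries. All KO values lay below all Het values, and the mean was 2.13-fold lower, a log2 fold change of -1.09 (SE 0.15, adjusted p = 4.1e-04). The call is close to the 2-fold threshold: without ZH KO replicate 3 the value was -0.98, and with the libraries scaled to the reads of the table it was -0.95 (adjusted p = 0.00128), neither of them past 2-fold.

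Oog3 was split among the KO libraries. It was at 669, 772, 752 and 692 FPKM in ZH Het, and at 328, 403, 781 and 341 in ZH KO. Replicate 3 of ZH KO was higher than every Het library, and the other 3 were lower than all of them. The log2 fold change was -0.73 (SE 0.25, adjusted p = 0.034), which did not pass 2-fold, and without ZH KO replicate 3 it was -1.01 and did. Replicate 3 was also the KO library with the lowest Oog1.

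The other oogenesins did not separate the genotypes. Oog2 was at 67.1 to 83.1 FPKM in ZH Het and 58.9 to 78.9 in ZH KO (log2 fold change -0.23, SE 0.13, adjusted p = 0.17). Oog4 was at 114 to 182 and 143 to 176 (0.04, SE 0.17, adjusted p = 0.84). Pramef12 was at 1.5 to 2.22 and 1.88 to 3.39 (0.24, SE 0.16, adjusted p = 0.21).

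Pramef25 stayed under the mean of 1 FPKM that a gene needed to be tested. It had 9, 6, 2 and 3 reads in the ZH Het libraries and 0, 101, 128 and 18 in the ZH KO libraries. Its mean was 0.145 FPKM in Het and 1.77 in KO, with KO replicate 1 below all Het libraries (two-sided exact permutation test, p = 0.14, where the smallest possible p is 0.0286). Only Oog1 of the members tested had values that did not overlap between the genotypes, whereas 46.9% of all genes tested did not overlap.

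Oocyte markers moved in the same libraries: of 11 tested, 4 were lower and 1 was higher in ZH KO, and the largest changes were those of Bmp15 (log2 fold change -2.16), Oosp1 (-1.96) and Nobox (-1.53). Their summed level was 21500 to 23400 CPM in ZH Het and 11600 to 23200 in ZH KO. The part of these in the values of Oog1 and Oog3 was not tested. Since the values are shares of the reads of a library, fewer transcripts of one gene and more transcripts of others cannot be told apart.

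The same question was asked for loss of Cabin1 in GV oocytes. None of the 5 members tested by limma was called in CabZ KO against CabZ Het, 1 had an unadjusted p under 0.05, and fitting limma with a trend called none either. Over all 6339 genes tested, 2.07% were called higher and 0.836% lower. Oog1 was at 178, 186, 230 and 188 FPKM in Het and at 194, 208, 212 and 217 in KO (log2 fold change 0.09, SE 0.11, adjusted p = 0.64). Oog2 was at 120 to 151 in Het and 130 to 139 in KO (0.00, SE 0.10, adjusted p = 0.99). Oog3 was at 750 to 971 and 662 to 1000 (-0.08, SE 0.14, adjusted p = 0.79).

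Oog4 differed by less than the 2-fold threshold but without overlap. It was at 209, 229, 205 and 196 FPKM in CabZ Het and at 300, 315, 322 and 324 in CabZ KO oocytes. The KO mean was 1.5-fold that of Het, a log2 fold change of 0.59 (SE 0.09, adjusted p = 0.0029). Pramef12 was also without overlap, at 2.4 to 3.29 in Het and 3.36 to 3.89 in KO (0.22, SE 0.11, adjusted p = 0.21). Thus 2 of 5 members did not overlap, against 20.6% of all genes tested.

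Pramef25 was again nearly absent, with 6, 0, 7 and 0 reads in CabZ Het and 32, 8, 9 and 9 in CabZ KO. Each KO library exceeded each Het library, with means of 0.117 and 0.625 FPKM (two-sided exact permutation test, p = 0.029, which is the lowest that 4 libraries against 4 can reach; it was not adjusted for the 3 tests of this kind). Granulosa and cumulus markers, of which 7 of 11 were listed and none reached a mean of 1 FPKM, summed to 52.7 to 67.9 CPM in CabZ Het and 95.2 to 137 in CabZ KO. Their part in the values of Oog4 and Pramef25 was not tested.

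The difference between the lines was tested directly, with the KO effect of each line in one limma fit over genes at a mean of at least 1 FPKM in both oocyte tables, where a gene was called at an adjusted p under 0.05. Of all 5332 genes, 27.8% were called, and of the 5 members 2 were. The effect on Oog1 was lower in ZH than in CabZ by 1.18 on the log2 scale (difference -1.18, SE 0.18, adjusted p = 4.1e-04). For Oog4 the difference was -0.54 (SE 0.19, adjusted p = 0.044), and this call was lost without a filter on low values, with a smaller pseudocount, with a replicate block (adjusted p = 0.0946) and in most fits that left out 1 library. The difference for Oog3 was -0.65 (SE 0.31, adjusted p = 0.12) with all libraries and -0.94 (adjusted p = 0.00296) without ZH KO replicate 3. The 2 lines were prepared as separate tables, so that line and preparation cannot be told apart.

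In 2-cell embryos from CabZ KO mice the members moved most, and in both directions. Of 8 members tested, 3 were called higher and 2 lower, with 7 of 8 not overlapping between the genotypes. Over all 7798 genes tested, 16.9% were called higher, 20.4% lower, and 51% did not overlap. The median log2 fold change of all genes was -0.11, and shifting the libraries to the same median moved it to 0.13 and the share of higher genes among those called from 45.3 to 60.9%. The 5 calls of members kept their direction and passed both thresholds under that scaling.

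Oog3, already the most abundant member, rose further. It was at 1380, 1140, 1220 and 1100 FPKM in CabZ Het and at 3550, 2790, 2800 and 3150 in CabZ KO embryos. Every KO library held more than 2 times the highest Het value, and the log2 fold change was 1.34 (SE 0.17, adjusted p = 3.2e-04). The gene took 0.618% of the reads of the table in Het and 1.57% in KO.

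Oog2 and Oog4 rose from low levels. Oog2 was at 24.8, 13.8, 14.9 and 23.9 FPKM in Het and at 57.5, 52.1, 53.3 and 82.5 in KO (log2 fold change 1.63, SE 0.25, adjusted p = 7.5e-04). Oog4 was at 8.98, 9.25, 6.06 and 12.7 in Het and at 28.5, 21.5, 29.5 and 43.3 in KO (1.63, SE 0.27, adjusted p = 9.9e-04). In KO replicate 4 both genes reached their highest value.

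Oog1 was just under the 2-fold threshold, although its groups did not overlap. It was at 159, 113, 97.4 and 131 FPKM in Het and at 240, 217, 248 and 245 in KO, with a log2 fold change of 0.94 (SE 0.19, adjusted p = 0.0026). Without CabZ Het replicate 1 the value was 1.06 and was called, as it was with the libraries shifted to the same median (1.18). Pramef12 went the same way at a low level, from 0.711, 0.667, 0.545 and 1.10 FPKM in Het to 1.70, 1.45, 1.52 and 1.93 in KO. Its log2 fold change was 0.60 (SE 0.17, adjusted p = 0.013), while the ratio of the means was 2.19, since the added pseudocount of 1 FPKM reduces the change of a gene as low as this. With a pseudocount of 0.1 it was called, at 1.07.

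Pramel6 and Pramel7, the pair on chromosome 2, fell. Pramel6 was at 40.8, 44.8, 53.5 and 30.2 FPKM in Het and at 18.9, 17.0, 25.4 and 8.22 in KO, with every KO library below every Het library (log2 fold change -1.31, SE 0.32, adjusted p = 0.0075). Pramel7 was at 10.6, 23.2, 19.1 and 17.8 in Het and at 4.17, 4.94, 5.96 and 2.02 in KO, again without overlap (-1.84, SE 0.31, adjusted p = 0.0012). The means were 2.44-fold and 4.13-fold lower. KO replicate 4 was the lowest for both genes, as it was the highest for Oog2, Oog4 and Pramef12, and without it the changes were -1.01 and -1.59 and were still called. With the values used as deposited, in place of FPKM, neither change passed 2-fold (-0.61 for Pramel6, adjusted p = 0.108, and -0.71 for Pramel7, adjusted p = 0.0312).

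Pramef25 was expressed in these embryos but did not separate them. It was at 16, 22.4, 20.2 and 25.3 FPKM in Het and at 19.2, 31.3, 19.9 and 3.91 in KO (log2 fold change -0.43, SE 0.51, adjusted p = 0.49). Without KO replicate 4, its single low library, the value was 0.14.

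**Figure D2:**
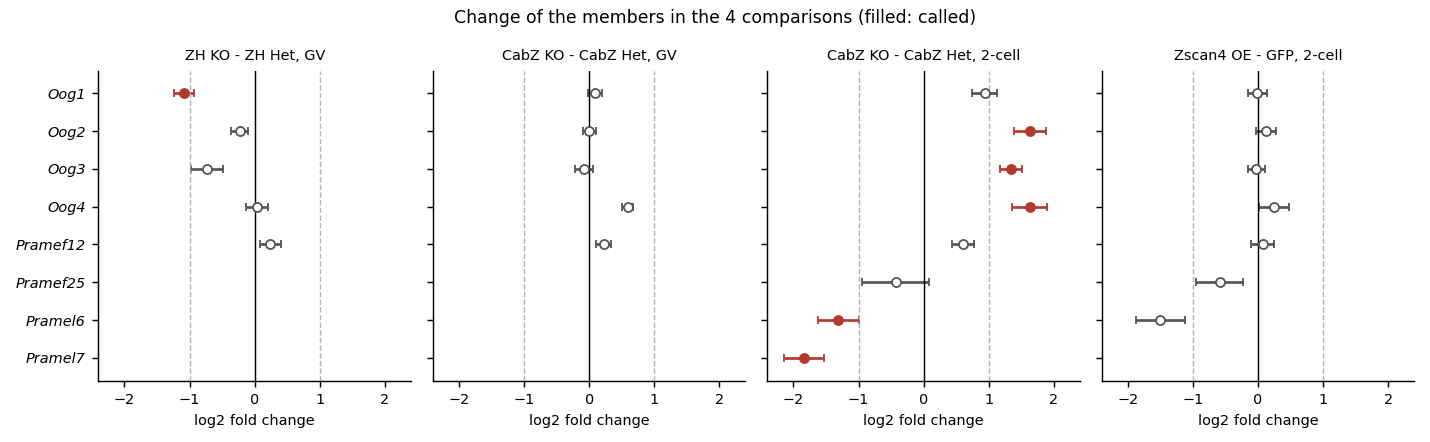
Points show the log2 fold change of each member (x axis) in the 4 comparisons, with bars of 1 SE from limma; filled red points were called, and dashed lines mark 2-fold. In CabZ KO 2-cell embryos Oog2, Oog3 and Oog4 lie at 1.34 to 1.63 and Pramel6 and Pramel7 at -1.31 and -1.84, while Oog1 is the called gene of ZH KO oocytes at -1.09.

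Oocyte markers were also higher in CabZ KO embryos. Of 10 tested, 5 were called higher and 0 lower, with the largest changes for Mos (log2 fold change 2.92), Ooep (2.64) and Gdf9 (1.89). Among all genes tested, 16.9% were called higher and 20.4% lower. All 12 were detected in every group, and their summed level was 1860 to 3110 CPM in CabZ Het and 4290 to 7570 in CabZ KO embryos. Granulosa and cumulus markers summed to 56.8 to 94.6 and 42.1 to 68.1. The part of the oocyte transcripts in the values of Oog2, Oog3 and Oog4 was not tested, and neither was that of the lower depth of the KO libraries.

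Whether the effect of Cabin1 loss differed between stages was tested with the GV and 2-cell effects in one fit. Of 8139 genes, 50% were called, and of 6 members listed at both stages 4 were. The KO effect was higher in embryos than in oocytes by 1.64 on the log2 scale for Oog2 (SE 0.26, adjusted p = 1.6e-04), 1.42 for Oog3 (SE 0.20, adjusted p = 6.8e-05), 1.04 for Oog4 (SE 0.28, adjusted p = 0.0057) and 0.85 for Oog1 (SE 0.20, adjusted p = 0.0023). The differences for Pramef12 (0.38, SE 0.17, adjusted p = 0.075) and Pramef25 (-0.94, SE 0.57, adjusted p = 0.19) did not pass. For Pramel6 and Pramel7 no such difference could be had, as the oocyte table does not list them.

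**Figure D3:**
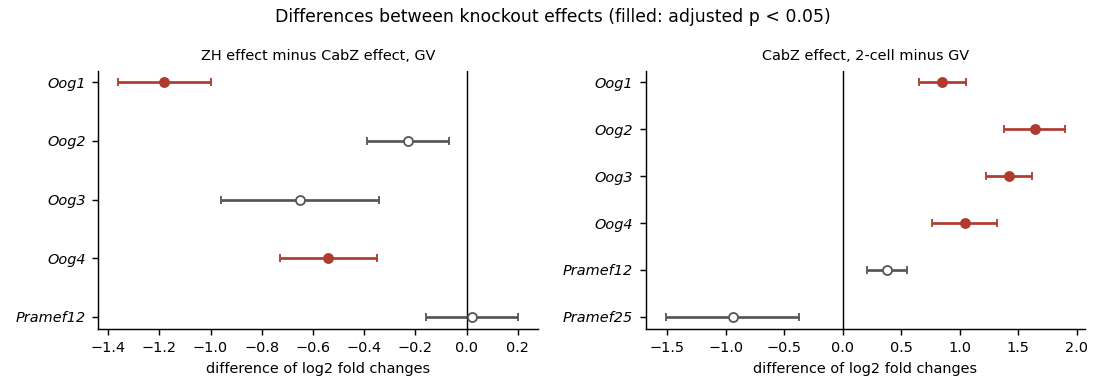
Points show the difference between 2 knockout effects for each member, in log2 units with bars of 1 SE (left, ZH minus CabZ in GV oocytes; right, 2-cell minus GV for CabZ); filled red points had an adjusted p under 0.05. Oog1 lies at -1.18 on the left, and Oog1 to Oog4 lie between 0.85 and 1.64 on the right.

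Injection of Zscan4d RNA was compared with GFP to see whether an excess of this two-cell factor in the oocyte changes the embryo's transcripts. None of the 7 members tested by limma was called, 1 had an unadjusted p under 0.05, and none was called with a trend. Over all 4293 genes tested, 0.0233% were called higher and 1.42% lower. The oogenesins were at nearly equal levels: Oog1 at 227 to 269 FPKM in GFP and 241 to 266 in Zscan4 OE (log2 fold change -0.01, SE 0.14, adjusted p = 0.98) and Oog3 at 1160 to 1290 and 1180 to 1220 (-0.03, SE 0.13, adjusted p = 0.91). The values were 0.12 (SE 0.15) for Oog2, 0.25 (SE 0.23) for Oog4 and 0.07 (SE 0.18) for Pramef12, with adjusted p of 0.67, 0.57 and 0.86.

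Pramel6 had the largest log2 fold change of the 7 members tested by limma. It was at 5.99, 7.37, 3.86 and 8.60 FPKM in the GFP libraries and at 1.38, 0.482 and 3.71 in those labelled Zscan4 OE. The groups did not overlap, by a narrow margin set by Zscan4 OE replicate C and GFP replicate C, and the log2 fold change of -1.50 (SE 0.38, adjusted p = 0.097) did not pass. Without Zscan4 OE replicate C it was -1.94 and was called (adjusted p = 0.0222), on 2 libraries against 4. Pramel6 was the only 1 of the 7 tested whose values did not overlap, against 18.2% of all genes tested.

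Pramel7 was under the mean of 1 FPKM. It had 146, 191, 115 and 155 reads in GFP and 38, 3 and 57 in Zscan4 OE libraries. Its means of 1.08 and 0.248 FPKM were 4.36-fold apart without overlap (two-sided exact permutation test, p = 0.057). This is the lowest p that this test can reach with 3 libraries against 4. Pramef25 was at 12.9 to 17.9 FPKM in GFP and at 18.7, 4.71 and 10.7 in Zscan4 OE (log2 fold change -0.59, SE 0.36, adjusted p = 0.38).

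The other genes of the family were taken by name and annotation, 46 in all, including the antisense RNA Pramef12os. In ZH KO oocytes, of 14 tested, 1 was called higher and 4 lower, with a median log2 fold change of -0.55 against -0.04 over all genes tested. Among all genes tested, 10.5% were called higher and 7.2% lower. The lower genes were C87499 (-1.82, adjusted p = 7.6e-05), C87977 (-1.41, adjusted p = 1.4e-04), Gm2042 (-1.11, adjusted p = 2.4e-04) and Gm13103 (-1.08, adjusted p = 2.0e-04), and Gm13089 was higher (1.00, adjusted p = 0.027). The falls of Gm2042 and of Oog1, its near copy, cannot be counted as separate. In CabZ KO oocytes, of 15 tested, C87977 alone was called (-1.39, adjusted p = 6.5e-05) and the median was 0.01 against -0.02. C87977, which RefSeq names Pramel29, was at 117 to 154 FPKM in ZH Het and 42.8 to 68.9 in ZH KO, and at 223 to 263 in CabZ Het and 77.8 to 100 in CabZ KO, so that it was lower without overlap in both lines. No member was called in both.

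In CabZ KO 2-cell embryos, 15 of 41 other family genes tested were called higher and 4 lower, with a median of 0.45 against -0.11 over all genes. Among all genes tested, 16.9% were called higher and 20.4% lower. Some of the higher ones passed the filter through KO alone, such as Gm7978 (0.132 FPKM in Het, 2.31 in KO) and Gm7982 (0.588 and 4.28). The 6 largest changes were rises of Gm6509 (3.33, adjusted p = 0.0013), Gm13103 (2.33, adjusted p = 2.5e-04), Gm6351 (2.3, adjusted p = 0.0098) and Gm13089 (2.27, adjusted p = 3.3e-04), and falls of Gm3183 (-2.72, adjusted p = 0.001) and Pramel4 (-2.44, adjusted p = 3.1e-04). Gm2042, the near copy of Oog1 and shown for that reason, went from 163 to 333 FPKM (1.05, adjusted p = 0.0017). In Zscan4 OE embryos, of 29 tested, Pramel4 was the only call, and the median was -0.30 against 0.03. Pramel4 was at 3.07 to 4.16 FPKM in GFP and at 0.0536 to 0.26 in Zscan4 OE (-2.04, adjusted p = 5.3e-04), and at 22.4 to 25.1 in CabZ Het and 1.28 to 5.19 in CabZ KO embryos.

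**Figure D4:**
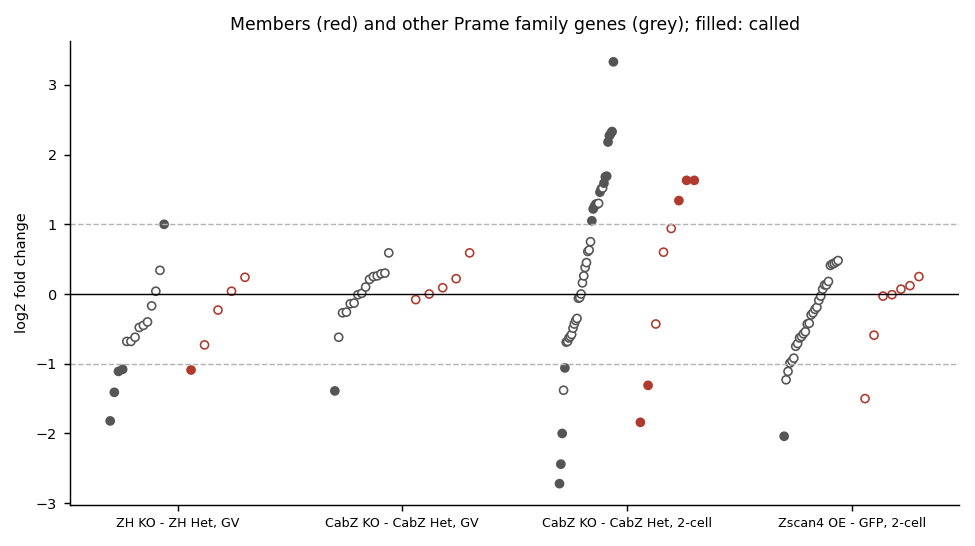
Each circle is one gene at its log2 fold change (y axis) in one comparison, sorted by value, with members in red and other Prame family genes in grey; filled circles were called, and dashed lines mark 2-fold. Both sets spread to both sides of 0 in CabZ KO 2-cell embryos, and in Zscan4 OE embryos Pramel4 at -2.04 is the single filled circle.

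Genes linked to the members in function were described from fixed lists. Of 16 names of partners of Pramel6 and Pramel7 and of the DNA methylation machinery, 7 were tested in ZH oocytes, where Elob, a subunit of cullin 2 ligases, was higher (2.04, adjusted p = 7.2e-05) and the methyltransferase Dnmt1 (-1.09, adjusted p = 0.001) and its relative Dnmt3l (-1.13, adjusted p = 0.0011) were lower, with a median of -0.22 against -0.04. None of 8 was called in CabZ oocytes (limma; 0.01 against -0.02), 1 of 5 was lower in CabZ embryos, which was Elob (-1.88, adjusted p = 5.7e-04; -0.50 against -0.11), and none of 5 in Zscan4 OE embryos (-0.34 against 0.03). In CabZ oocytes 1 gene of this list, Elob, had an adjusted p under 0.05 at less than 2-fold (0.79, adjusted p = 0.0048), and in Zscan4 OE embryos 0 genes had one.

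Of 8 transcription factors that drive oocyte genes, Figla was higher (1.01, adjusted p = 5.6e-04) and Nobox lower (-1.53, adjusted p = 0.031) in ZH KO among 5 tested (median -0.39). Tbpl2 was higher in CabZ KO embryos (1.62, adjusted p = 2.2e-04) among 3 tested (median 0.96), and none was called among 5 in CabZ oocytes or 2 in Zscan4 OE embryos, where none had an adjusted p under 0.05. Of 9 genes of the RAS and RAL pathway, Hras was lower in CabZ KO embryos (-1.13, adjusted p = 0.0064) among 4 tested (median -0.14), and none was called among 2 to 3 tested in the other tables (medians -0.25, 0.03 and 0.19), none of them with an adjusted p under 0.05. Of 24 two-cell-stage genes, 22 were listed for ZH oocytes and 10 tested, of which 9 were higher in ZH KO (median 3.21). The largest changes were those of Usp17lb (4.41), Gm5039 (4.35) and Zscan4c (4.17). Genes low in both groups were not tested, and some passed the filter through KO alone, such as Usp17lb (0.0776 FPKM in Het, 34.9 in KO) and Gm5039 (0.669 and 34.9). The share and the median in ZH KO therefore depend on the filter. In CabZ KO oocytes 2 of 6 were higher (median 1.14), Gm5039 (2.87) and Zscan4d (1.33). In CabZ KO embryos 7 of 24 were higher and 4 lower (median 0.79), where 16.9% of all genes tested were higher and 20.4% lower. The largest changes there were those of Gm5039 (2.92), Gm8300 (2.52) and Gm2022 (2.19). In Zscan4 OE embryos 2 of 23 were lower (median -0.71), Tdpoz1 (-1.43) and Gm21761 (-1.07).

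The genes around the members were counted within 250 kb of them, leaving out the Prame family as taken by name and annotation. BC080695, which shares windows of 100 bases with Pramef25, was thus not left out. In ZH KO oocytes 3 of 13 tested were higher (Gm13058, Gm13100 and AC211878.5) and 1 lower (Snw1), with a median of -0.26 against -0.04 over all genes tested. In CabZ KO oocytes 2 of 16 were higher, again Gm13058 and Gm13100 (median -0.16 against -0.02). In CabZ KO embryos 14 of 32 were higher and 3 lower (median 0.83 against -0.11), where 16.9% of all genes tested were higher and 20.4% lower. The higher ones were Anp32b-ps1, BB287469, Gm13041, Gm13058, Gm13080, Gm13100, Gm21319, Gm21936, Gm21939, Gm4027, Gm48110, Gm48151, Gm48154 and Gm8300, and the lower ones Gm13102, Gm2001 and Slirp. In Zscan4 OE embryos 2 of 22 were lower, Gm16381 and Gm2001 (median -0.35 against 0.03). Over all genes tested, the shares called higher and lower were 10.5 and 7.2% for ZH oocytes, 2.07 and 0.836% for CabZ oocytes and 0.0233 and 1.42% for Zscan4 OE embryos. Gm13058 and Gm13100 were thus higher in all 3 knockout comparisons, whereas no member was called in all 3.

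To find genes with a pattern like that of a member, log2(FPKM + 1) was centred on the mean of each table and correlated over the 31 libraries among 3297 genes at a mean of at least 1 FPKM in all 4 tables. The libraries share their tables and depths, and the values are a description. Oog1 was most like Gm2042 (r = 0.98), Btg4 (0.93) and Rfpl4 (0.92). The value for Gm2042 cannot be read as a shared pattern, since reads of these near copies cannot be assigned with certainty. Oog2 was most like Obox2 (0.95), C87198 (0.95) and Glrx (0.94), Oog3 like A730082K24Rik (0.92), Gm2309 (0.90) and E330016L19Rik (0.90), and Oog4 like Gm12633 (0.92), Mbl2 (0.90) and Fbxw20 (0.90). Pramef12 was most like 1700116B05Rik (0.81), Gm12633 (0.79) and Shmt2 (0.79). Among the members, Oog2 and Oog4 had the highest correlation (0.84) and Oog1 and Pramef12 the lowest (0.25). The other 3 members did not reach 1 FPKM in all tables.

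Open chromatin at the members was looked at in the peak lists of CabZ GV oocytes, where 32.2% of all 21951 protein-coding genes had a peak within 500 bp of their start in the list with the most peaks and 3.74% in the list with the fewest. Oog4 had a start peak in all 3 CabZ Het lists, with a fold enrichment over the genome background of 3.54, 4 and 4.98, and in 1 of 3 CabZ KO lists (4.21). Pramef12 had one in 2 of 3 Het lists (4.72 and 4.10) and in 2 of 3 KO lists (7.02 and 4.43). Oog2 had one in 1 Het list (3.81) and in no KO list. For Oog1, Oog3, Pramef25, Pramel6 and Pramel7 no start peak was called in any of the 6 lists. The Het lists held 43399 to 111327 peaks and the KO lists 19160 to 46070, so that fewer peaks at a member in KO and fewer peaks in all cannot be told apart. With 3 lists against 3 no p under 0.1 is possible, and no test was made. Only unique alignments were kept by the authors, so that the absence of a peak at Oog1, which has a near copy, says little about its chromatin.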

How the data were processed

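RNA-seq was analysed in 31 libraries and ATAC-seq in 6. According to the methods, the authors used TrimGalore for trimming and STAR (version 2.5.3a in the submitters' processing notes) for alignment to GRCm38, and calculated FPKM over exon models. The ZH and Zscan4 tables hold FPKM that the values show to be over the gene span, deposited with a small constant added. Both CabZ tables were deposited as score values, which the values show to be reads divided by the span 2 times and scaled to equal totals. FPKM were restored from them by removing the constant, multiplying by the span and rescaling. Reads were recovered from the steps between values (82.1 to 87.5% of low values lay within 0.05 of a whole number). They cover counting error only. The ATAC-seq peaks had been called by the authors with MACS2, and were deposited with fold enrichment ratio values and -log10 q-values.

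Limma 3.58.1 (R 4.3.3) was fitted to log2(FPKM + 1) within each table, keeping genes whose mean reached 1 FPKM, with Benjamini-Hochberg adjustment over all genes, after a check on simulated data. The mean was taken over both groups, so that a gene near the floor in one group could enter through the other. The design had been written for FPKM in all tables. Single genes under this mean were compared by exact permutation tests in scipy 1.17.1, and sequences were aligned with Biopython 1.88. The named genes were all 8 members, called family genes (up to 6 per table by size), up to 3 called genes of each list per table, the 3 most correlated genes per member, and called neighbours. The members and lists were chosen with earlier results of these data known. Alternatives changed the filter, pseudocount, scaling, threshold, block and libraries. Equal replicate numbers did not pair the libraries (correlations of deviations between -0.41 and 0.40).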

Additional observations from a re-analysis of the deposited data

Results flagged for a closer look

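A pair of libraries stood far from the others of their group, among 48 groups of 4 libraries examined, of which chance marks about 1 in 20. Oog3 was at 781 FPKM in ZH KO replicate 3, while the other 3 KO libraries were at 328 to 403. Pramef25 was at 1.33 FPKM in CabZ KO GV replicate 1, on 32 reads, with the others at 0.358 to 0.416.

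Differences between knockout effects passed a limma test of the difference itself for 6 values. These were 2 of 5 members between the lines and 4 of 6 between the stages. Of all genes tested, 27.8% passed between the lines and 50% between the stages. Between the lines, in GV oocytes, the effect on Oog1 differed by -1.18 and that on Oog4 by -0.54 on the log2 scale (ZH minus CabZ). The call of Oog4 was lost with no filter on low values, with a smaller pseudocount and with a replicate block. Between stages, in the CabZ line, the effect was higher in 2-cell embryos than in GV oocytes by 0.85 for Oog1, 1.64 for Oog2, 1.42 for Oog3 and 1.04 for Oog4.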

How the results depend on the processing

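Of 738 values under alternatives, over 42 results, 657 were marked as the same. Of these, 569 were values of single genes that kept their direction and side of the threshold. The other 88 were counts of called members that equalled or stayed near the main count, whichever members were called. In CabZ embryos 4 members were called in place of 5 with values as deposited, where Oog1 was gained and Pramel6 and Pramel7 were lost. The number of members called in ZH KO oocytes was 1, and became 2 with no fold threshold and 0 with libraries scaled to the reads of the table. Leaving out 1 library gave 1 to 2, with Oog3 in place of Oog1 without KO replicate 3 and Pramef25 (log2 fold change 1.41) added without KO replicate 1. That library held 0 reads of Pramef25, and leaving it out let the gene pass the filter through the KO group alone. With all libraries and no filter Pramef25 was not called. In CabZ oocytes the count went from 0 to 1, Oog4, with no fold threshold. It was 0 to 1 in Zscan4 OE embryos, where Pramel6 was called without replicate C. The 2 members called between lines became 1 with no filter, with a pseudocount of 0.1 and with the replicate block, and 1 to 2 when leaving out 1 library. The call of Oog4 was lost under those 3 settings and without most of the single libraries, and Oog3 was gained without ZH KO replicate 3. The replicate block, which rests on numbers that do not pair the libraries, changed no other call.

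None of the values that changed sign was called. Shifting libraries to the same median gave -0.11 for Oog4 in ZH, and 0.09 for Oog1 and 0.07 for Oog3 in Zscan4 OE. It moved the median of all genes from -0.04 to -0.19 in ZH, and the share of higher calls from 59.2 to 42.9% (72% when scaled to reads). In Zscan4 OE it moved from 0.03 to 0.13. Values as deposited gave 0.01 for Oog2 in CabZ oocytes and 0.17 for Pramef25 in CabZ embryos. The replicate block gave 0.01 for Oog1 and -0.05 for Pramef12 in Zscan4 OE.

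Leaving out 1 library gave -0.08 to 0.14 for Oog4 in ZH. In CabZ oocytes it gave -0.06 to 0.05 for Oog2 and -0.19 to 0.01 for Oog3, and in CabZ embryos -0.77 to 0.14 for Pramef25. In Zscan4 OE it gave -0.06 to 0.03 for Oog1 and -0.05 to 0.14 for Pramef12. The difference of Pramef12 between the lines ran from -0.11 to 0.10. The causes were not tested. Values of Pramef25 in oocytes rest on 0 to 128 reads per library, and those of Pramel7 in Zscan4 OE embryos on 3 to 57.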
